A study of Mus musculus with 10 samples.

Results

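The nuclei described here are cortical nuclei chosen by a gate on molecule counts. The gate asked for transcripts of genes that include Fezf2 and were taken as markers of layer 5 projection neurons. Fezf2 itself was seen in 121 of the 242 nuclei chosen. In DroNc-seq single nuclei are caught in droplets with barcoded beads, and each captured transcript is counted once through its unique molecular identifier (UMI). A nucleus was a member if it had at least 2 UMIs from at least 2 of 8 genes (Fezf2, Coro6, Parm1, Pou3f1, Npr3, Nefh, 5830416P10Rik and 6430573F11Rik), no UMI of Gad1 or Gad2, and no UMI of Syt6, Rprm, Foxp2, Otof or Scube1. The gate found 242 of 5966 cortical nuclei, or 4.06% (Wilson 95% interval 3.58 to 4.59%, counting error only). The values of these 15 genes chose the members, so they are given as a description and were left out of every test.

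The nuclei came from archived frozen brain tissue of C57BL/6 mice, in 5 libraries labelled Cortex, dissected as prefrontal cortex, and 5 labelled Hippocampus. The labels give no treatment, altered allele, age or sex, and all groups compared here are classes of nuclei from the same libraries: the gate nuclei, all other cortical nuclei, other excitatory nuclei, and nuclei of a layer 6 and of a layer 2/3 gate. Titles carry the numbers 0 to 3, number 0 with a library a and a library b, and libraries of 1 number were summed to give 4 units per region. The series design names 4 mice without tying a number to a mouse, so the spread between units may be technical. The p-values weigh the difference between classes within units against a residual spread partly pooled over genes. A small p-value is therefore not a measure of a gene's own spread between units alone.

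Layer 5 of the cortex holds the large pyramidal neurons that send axons out of the cortex to brainstem, spinal cord and thalamus, beside neurons that project within the telencephalon and a small near-projecting type. Fezf2 is a zinc finger transcription factor that specifies the subcerebral type during development, and Bcl11b, also called Ctip2, acts downstream of it in axon outgrowth. The subcerebral neurons are known for thick, neurofilament-rich axons and for burst firing. Of the gate genes, Nefh encodes the heavy neurofilament subunit, Pou3f1 a POU-domain transcription factor, Npr3 a natriuretic peptide receptor and Coro6 a member of the actin-binding coronins.

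Unit 0 stood apart from the others. The chi-square per degree of freedom between its libraries and those of units 1 to 3 was 6.50 to 7.35, against 1.84 between libraries 0a and 0b and 1.36 to 1.42 among units 1 to 3. Its nuclei were also deeper. Cortical libraries held 1807068 to 2600788 UMIs, no 2 libraries had more than 3 barcodes in common, and no member's barcode occurred in another library (0 of 242). Results that rest on unit 0 are given with and without it.

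Members made up 4.09, 4.31, 3.92 and 3.90% of the nuclei of units 0, 1, 2 and 3, with a mean of 4.05 ± 0.19% (SD, n = 4), so the share varied little between units. They were deeper than the nuclei around them. The median was 1838.5 UMIs in members, against 1312.5 in other cortical nuclei, and a nucleus with more UMIs passes such a gate more easily. All members together held 561141 UMIs, and a single UMI was worth 5.06 to 9.10 CPM (the counts of a class scaled to a common library size) in a unit's members, which limits what can be read from genes below about this level.

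Coro6 was the gate gene seen most often, in 165 members (68.2%). The gate genes were not confined to members: 14.4% of other cortical nuclei had a Coro6 UMI and 6.57% a Fezf2 UMI. Fezf2 itself was seen in 121 members, in 32, 42, 27 and 20 nuclei of units 0, 1, 2 and 3. Nefh was seen in 81 members, Parm1 in 73, Npr3 in 61, Pou3f1 in 54, 6430573F11Rik in 39 and 5830416P10Rik in 13. The commonest pair was Fezf2 with Coro6, in 74 members, followed by Coro6 with Nefh in 51. Before the negative genes were applied, 578 nuclei passed. Of these, 173 were removed for Gad1 or Gad2, genes of inhibitory neurons, and 163 more for a layer 2/3, layer 6 or Scube1 transcript.

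Many members stood near the threshold: 99 (40.9%) had exactly 2 gate UMIs, 143 had 3 or more and 49 had 5 or more. Bcl11b, which the gate did not use, lay at 135 CPM in members with 2 gate UMIs, 214 CPM with 3 or 4 and 273 CPM with 5 or more. Among nuclei outside the gate that had no UMI of a negative gene, it lay at 42.1 CPM with 0 gate UMIs, 80.0 CPM with 1, and 70.5 CPM with 2 or more from 1 gene. Cacna1h, which encodes the T-type calcium channel Cav3.2, lay at 100.2, 159 and 201 CPM in the 3 classes inside the gate, and at 34.9, 28.0 and 35.3 CPM in the 3 outside. Cux2, a transcription factor of upper layers, ran the other way, at 90.2, 54.8 and 44.6 CPM inside and at 173, 121 and 151 CPM outside. These values describe the edge of the gate and carry no test.

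**Figure D1:**
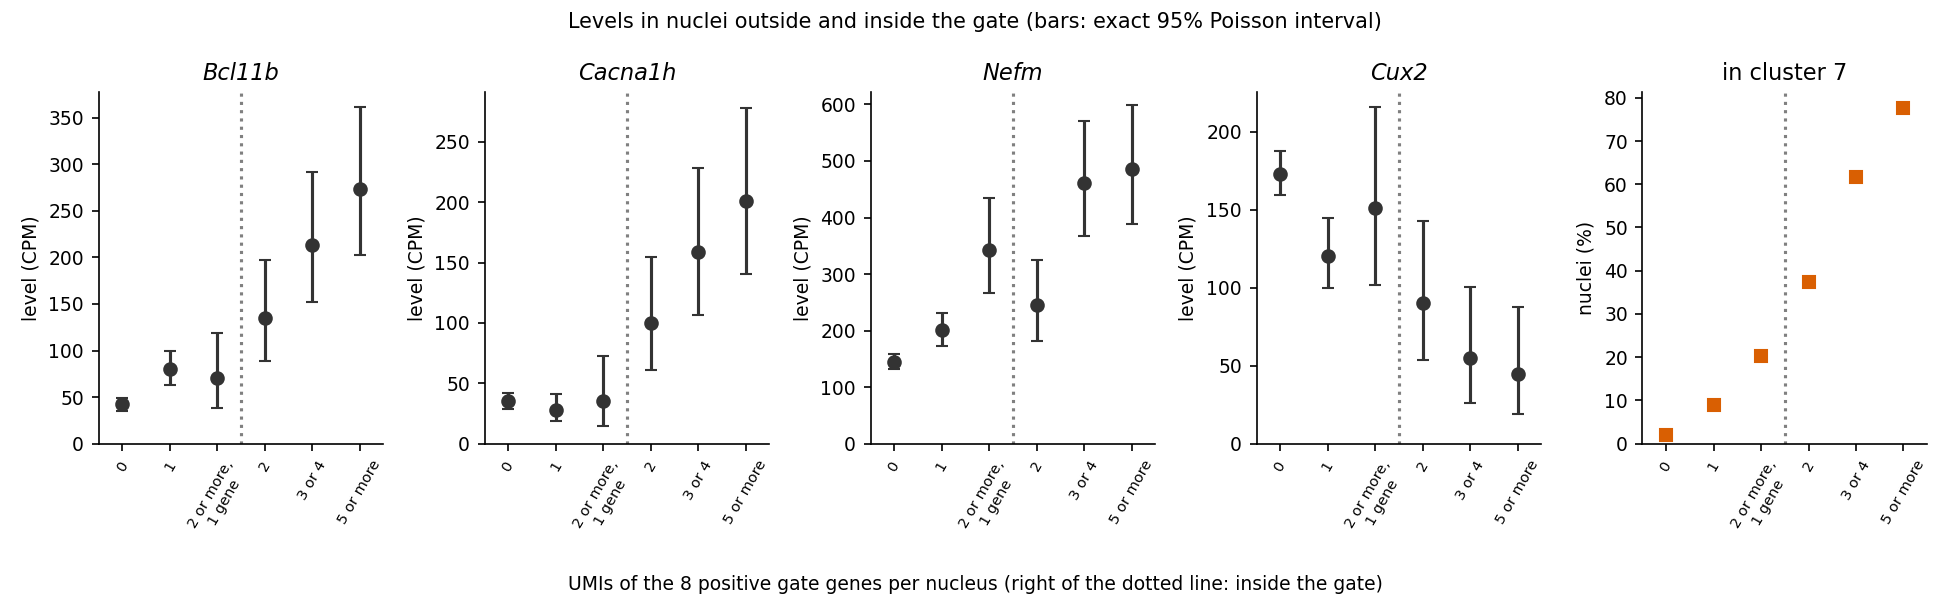
Levels of Bcl11b, Cacna1h, Nefm and Cux2 (CPM of the UMIs summed over each class) and the share of nuclei in cluster 7 (percent) by the number of gate UMIs, with exact 95% Poisson intervals for counting error on the 4 gene panels. Bcl11b reached 273 CPM in members with 5 or more gate UMIs and lay at 42.1 CPM in nuclei with 0.

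The label was checked against marker lists that share no gene with the gate. At least 1 UMI of the layer 5 subcerebral list was found in 176 members (72.7%; 900.0 CPM summed over the list), in 52.3% of other excitatory nuclei (456 CPM) and in 48.9% of non-neuronal nuclei (413 CPM). The share in non-neuronal nuclei, at a median of 1718 UMIs, was taken as the background for this list. Whether these nuclei express some of its genes themselves was not tested, and 8 of the 374 were members. The intratelencephalic list was found in 27.7% of members, in 26.3% of other excitatory nuclei and in 30.5% of non-neuronal nuclei, so its share in members was not above that of non-neuronal nuclei. The near-projecting list was found in 15.3% of members, against 9.90% of other excitatory nuclei and 17.4% of non-neuronal nuclei. Its gene Tshz2 lay at 96.5 CPM in non-neuronal nuclei and 30.8 CPM in other cortical nuclei, so non-neuronal nuclei give no background for this list. A set of 46 members (19.0%) had no UMI of any of the 3 lists.

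Clustering of all cortical nuclei without the gate genes placed 133 members (55.0%) in 1 cluster of 333 nuclei, number 7. Tcerg1l, Bcl6, Fam84b, Bcl11b and Npnt were among its leading genes, and with 2 subcerebral markers among the top 10 it stays unnamed. It held 41.1, 62.9, 66.7 and 48.4% of the members of units 0, 1, 2 and 3, against 2.28, 3.79, 5.06 and 2.88% of the other nuclei. A near-projecting-like cluster of 90 nuclei, number 20, led by Tshz2, Trhr, Vwc2l and Slc17a8, held 13 members, of which 9, 0, 1 and 3 came from units 0, 1, 2 and 3. Another 29 members lay in 8 clusters with at least 2 listed glial, vascular or interneuron markers among their 10 leading genes. The other 67 (27.7%) lay elsewhere. The largest part, 12 members, lay in cluster 5 (386 nuclei), whose leading genes include Otof and Rasgrf2. Cluster 8 (333 nuclei), led by Rxfp1, held 10 members. Cluster 4 (421 nuclei), led by Ighm and Syt6 and with 2 layer 6 and subplate markers among its top 10, held 8. Cluster 10 (286 nuclei), whose leading genes include Slc7a10 and the astrocyte receptor Fgfr3, held 6. Cluster 7 also held 200 nuclei that were not members. Of these, 63 had no UMI of the positive gate genes, 67 had 1 and 23 had 2 or more from 1 gene, whatever their negative genes. The other 47 passed the positive genes and were removed for a UMI of Gad1, Gad2 or another negative gene.

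**Figure D2:**
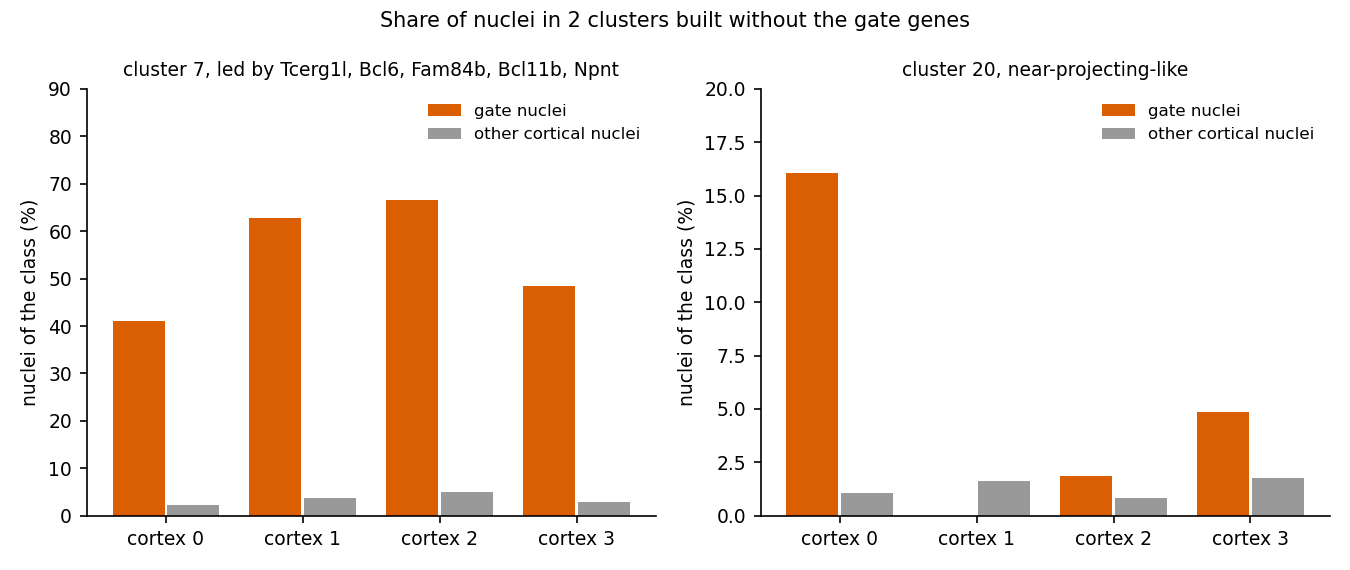
Percent of gate nuclei (left bar) and of other cortical nuclei (right bar) of each unit that fell in clusters 7 and 20, which were made without the gate genes. In cluster 7 the gate nuclei lay at 41.1 to 66.7% and the other nuclei at 2.28 to 5.06%.

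Members in and outside cluster 7 differed in level for genes that the clustering used, given here without a test. Bcl11b lay at 272 CPM in members inside the cluster and 123 CPM in members outside it, and Cacna1h at 217 and 71.2 CPM. Nefm, the medium neurofilament subunit, lay at 568 CPM inside and 178 CPM outside, the second value close to the 178 CPM of other cortical nuclei. Tshz2, a near-projecting marker that encodes a zinc finger protein, lay at 19.5 CPM inside and 131 CPM outside. The values below are over all members.

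Against all other cortical nuclei, the members were higher in the subcerebral genes Bcl11b and Fam84b, the neurofilament genes Nefm and Nefl and the single channel genes Cacna1h, Kcng1 and Kcnn2, and lower in the upper layer gene Cux2 and in several interneuron, astrocyte and vascular markers. UMIs were summed per unit and class, and edgeR's quasi-likelihood test with the unit as a block was adjusted by Benjamini-Hochberg over 12137 genes. It called 207 genes higher (1.71%) and 294 lower (2.42%) at an adjusted p under 0.05, together 4.13%, and in 10.4% of all genes the units of the classes did not overlap. The negative genes of the gate remove interneuron, layer 2/3 and layer 6 nuclei, so the lower levels of their other markers follow in part from the rule. Nefh, the heavy neurofilament subunit, is a positive gate gene. How far the higher Nefm and Nefl follow from this choice was not tested. Of 80 passing genes followed through the alternatives, 40 kept their call whichever unit was left out, among them Bcl11b, Fam84b, Tcerg1l, Kcng1, Cacna1h, Kcnn2, Scn1a, Scn4b, Npnt, Bcl6, Nefm, Nefl, Gria2, Gria4, Camk2n1, Cpne9, Ryr3, Cux2 and Lmo4. The other 40 lost it without at least 1 unit, with adjusted p-values of 0.0512 to 0.982 there.

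Bcl11b, at chr12:107910403-108003602 (mm10), lay at 239, 261, 175 and 119 CPM in the members of units 0, 1, 2 and 3, against 54.4, 61.0, 68.2 and 58.6 CPM in other cortical nuclei. Every unit of members lay above every unit of the others, with the highest levels in units 0 and 1. The log2 fold change was 1.76 ± 0.19 (SE; adjusted p = 1.1e-16, edgeR). After each nucleus was thinned to 1000 UMIs, which kept 219 of 242 members, 18.3% of members had a Bcl11b UMI (13.7 to 23.9%), against 6.66% of other excitatory and 3.93% of non-neuronal nuclei. Unthinned, these shares were 29.3, 11.2 and 7.49%.

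Of the 15 tested genes of the layer 5 subcerebral list, 5 were higher and 0 lower, with a median log2 fold change of 0.90, against -0.05 over all genes tested. The 5 were Bcl11b, Fam84b, Igfbp4 (an insulin-like growth factor binding protein), Ntng1 (netrin-G1, a membrane-anchored axon protein) and Crym (mu-crystallin, which binds thyroid hormone). Fam84b lay at 41.5, 36.2, 61.2 and 45.6 CPM in members and at 3.97, 5.35, 7.87 and 6.51 CPM in other nuclei, a log2 fold change of 2.99 ± 0.50 (adjusted p = 4e-07, edgeR). It rests on 25 UMIs in members, and no unit overlapped. Crym was higher in 3 of 4 units only, at 161, 87.0, 35.0 and 137 CPM in members against 41.1, 72.2, 72.6 and 63.0 CPM (log2 fold change 0.90 ± 0.23). It lost its call without unit 0 or unit 3 (adjusted p up to 0.784, edgeR), Igfbp4 without unit 0 or 2 (up to 0.0575) and Ntng1 without unit 0 or 1 (up to 0.327).

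Etv1, an ETS transcription factor of layer 5, was the 1 gene of 4 tested in the intratelencephalic list that rose (1.03 ± 0.27, higher in 3 of 4 units), and it lost its call without unit 0 or unit 2 (adjusted p of 0.160 to 0.255, edgeR). Tshz2 was the 1 gene of 4 tested in the near-projecting list that rose. The median log2 fold change was -0.31 in the intratelencephalic list and 1.39 in the near-projecting list. Tshz2 lay at 150.5, 21.7, 17.5 and 45.6 CPM in members and at 32.5, 28.1, 24.1 and 35.6 CPM in other nuclei, so the difference sat mainly in unit 0. Its log2 fold change of 1.12 was -0.071 without unit 0, whose members also held 9 of the 13 nuclei in the near-projecting-like cluster.

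**Figure D3:**
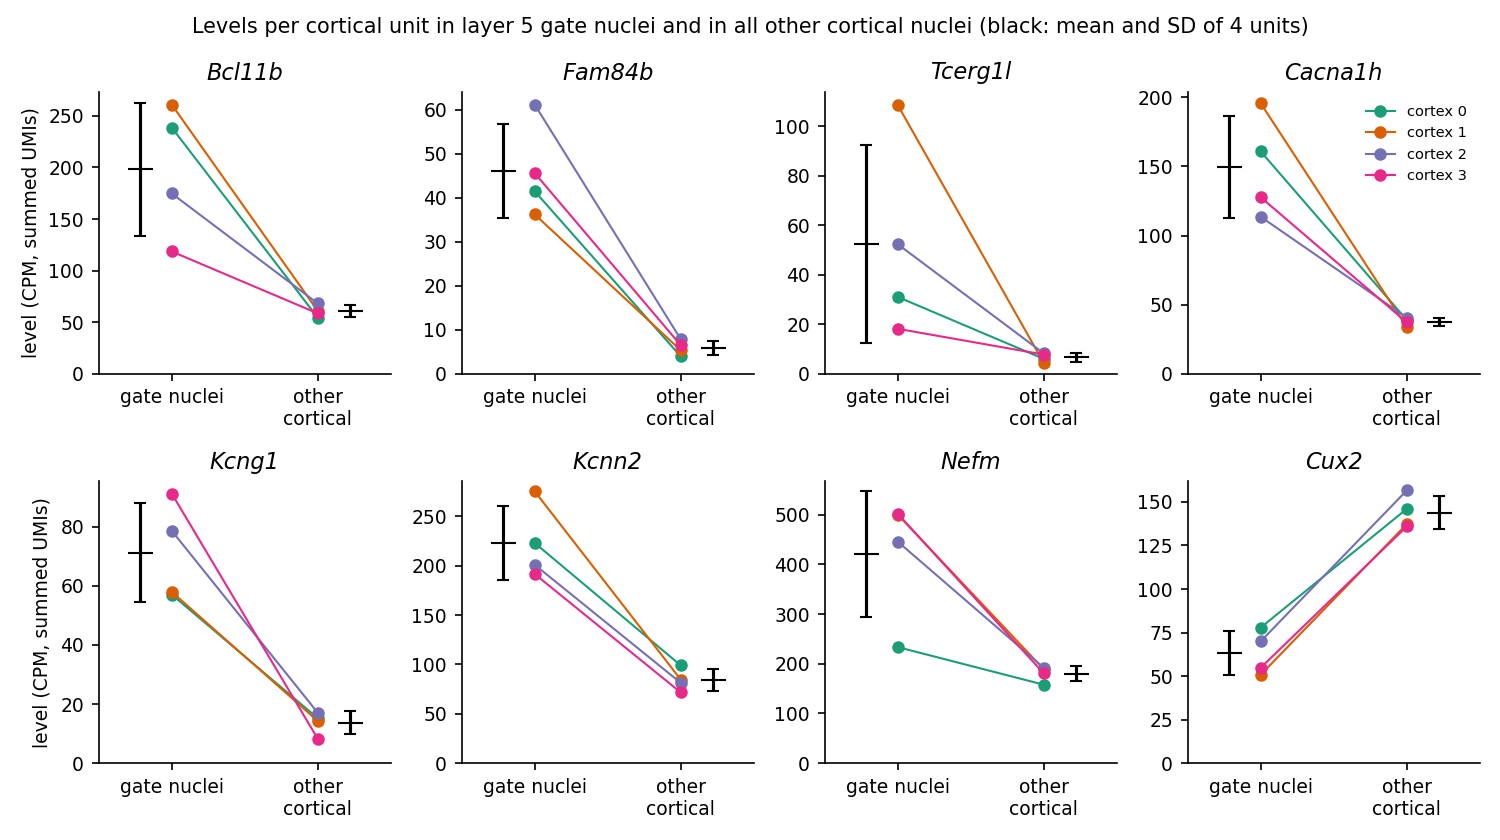
Levels (CPM) of 8 genes in gate nuclei (left) and other cortical nuclei (right) of each of 4 units, joined by unit, with mean ± SD in black. Bcl11b, Fam84b, Tcerg1l, Cacna1h, Kcng1, Kcnn2 and Nefm lay higher in the gate nuclei of all 4 units, and Cux2 lay lower in all 4.

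Among the genes with the largest folds, several encode channels or receptors. Kcng1, a modifier subunit of voltage-gated potassium channels at chr2:168260117-168281736 (mm10), lay at 57.1, 58.0, 78.7 and 91.3 CPM in members and at 15.2, 14.3, 17.1 and 8.25 CPM in other nuclei (log2 fold change 2.32 ± 0.36, adjusted p = 4.3e-08, edgeR). Cacna1h, at chr17:25374285-25433783 (mm10), lay at 161, 196, 114 and 128 CPM in members and at 39.0, 33.9, 40.7 and 37.3 CPM in other nuclei (2.01 ± 0.23, adjusted p = 4.8e-15). Kcnn2, the SK2 calcium-activated potassium channel, lay at 223, 275, 201 and 192 CPM in members and at 99.0, 84.7, 81.3 and 71.6 CPM in other nuclei (1.39 ± 0.18). All 3 were higher in every unit with no overlap. Scn4b, a sodium channel beta subunit linked to resurgent current, rose by 1.60 ± 0.32, Scn1a, the alpha subunit Nav1.1, by 0.61 ± 0.10, and the TRP cation channel Trpc7 by 2.11 ± 0.55. Trpc7 lost its call without unit 0 (adjusted p = 0.103, edgeR). Over the lists, 2 of 35 tested potassium and HCN channel genes were higher and 1 lower, and 3 of 23 sodium and calcium channel genes were higher and 1 lower.

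Other genes high in members were Tcerg1l (31.1, 109, 52.4 and 18.3 CPM in members, against 6.07, 4.46, 8.31 and 7.81 CPM in other nuclei; log2 fold change 2.94 ± 0.46) and Npnt, an extracellular matrix ligand of integrins (36.3, 43.5, 114 and 137 CPM, against 17.3, 20.5, 28.0 and 14.8 CPM; 1.91 ± 0.32). Both lay above the other nuclei in all units, and their level differed several-fold between units of members. Bcl6, a transcriptional repressor, rose by 1.88 ± 0.39, the adhesion receptor Gpr126 by 2.01 ± 0.48, Nkain3, an interactor of the sodium pump, by 2.00 ± 0.62, the actin-associated Pdlim1 by 1.88 ± 0.55 and Tmem200a by 1.76 ± 0.40. These 5 rest on 13 to 29 UMIs in members. Nkain3 lost its call without unit 0, 1 or 2 (adjusted p up to 0.364, edgeR) and Pdlim1 without unit 0, 1 or 3 (up to 0.190). Gpr126 lost it without unit 1 (0.291) and Tmem200a without unit 3 (0.0570).

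In the cytoskeleton and axonal transport list, 5 of 28 tested genes were higher and 0 lower, with a median of 0.06. Nefm lay at 233, 500.1, 446 and 502 CPM in members and at 158, 189, 192 and 181 CPM in other nuclei, a log2 fold change of 1.17 ± 0.13 (adjusted p = 1.3e-15, edgeR). Its lowest unit among members, unit 0, still lay above all units of the others. Nefl, the light subunit, lay at 208, 355, 288 and 237 CPM in members and 101, 202, 197 and 204 CPM in others (0.68 ± 0.15). The annotations of Nefm and Nefl overlap on opposite strands, and no source used here says whether counting used the strand, so reads of the overlap cannot be told apart. Ina, Map1b and the kinesin Kif5a were the other 3 that passed, Kif5a by 0.43 ± 0.13 and higher in 2 of 4 units. Kif5a lost its call without unit 0 or unit 1, at 0.20 to 0.31 (adjusted p of 0.372 to 0.718, edgeR).

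Glutamate receptor genes moved in both directions. Of 15 ionotropic genes, 5 were higher, among them Gria2, the AMPA subunit that limits calcium entry (3547 ± 209.8 CPM in members and 2604 ± 70.0 CPM in others, SD, n = 4 each), and the kainate subunit Grik2 (0.70 ± 0.15). The 1 lower gene was Gria4, an AMPA subunit, at 265, 138, 166 and 192 CPM in members and 362, 354, 321 and 339.5 CPM in others (-0.82 ± 0.15). The metabotropic receptor Grm5 rose slightly (0.37 ± 0.12, higher in 3 of 4 units), 1 of 7 tested. Grm5 lost its call without unit 0, 1 or 2 (adjusted p of 0.123 to 0.333, edgeR) and Grik2 without unit 3 (0.0761). None of 12 GABA-A receptor genes, 15 monoamine and acetylcholine receptor genes or 20 respiratory chain genes passed (0 each).

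Of 33 axon guidance genes 4 were higher and 1 lower. Sema6d, a transmembrane semaphorin, rose by 1.13 ± 0.26, the Slit receptor Robo1 by 1.36 ± 0.38 and its ligand Slit2 by 0.90 ± 0.27, with Epha5 as the fourth. Without unit 0 the value for Robo1 was 0.90 (adjusted p = 0.526, edgeR). Sema6d also lost its call without unit 0 (0.153), and Slit2 without unit 0, 1 or 3 (up to 0.275). The ephrin receptor Epha4 fell by 0.64 on the log2 scale and lost its call without unit 1 (adjusted p = 0.124, edgeR). In the calcium handling list 2 of 25 rose and 5 fell. Ryr3, a calcium release channel, rose by 1.17 ± 0.18, and Camk2n1, an endogenous inhibitor of CaM kinase II, lay at 446, 413, 402 and 237 CPM in members against 557, 690.1, 715 and 692 CPM (-0.77 ± 0.11). The copine Cpne9 lay at 88.2, 50.7, 26.2 and 82.1 CPM in members, below the 250.4, 146, 154 and 155 CPM of the others (-1.51 ± 0.22).

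Upper layer and callosal genes were lower in 5 of 14 tested and higher in 0, with a median of -0.62. Cux2 lay at 77.8, 50.7, 69.9 and 54.8 CPM in members and at 146, 137, 157 and 136 CPM in other nuclei, with no overlap (-1.15 ± 0.23). Lmo4, a LIM-only cofactor of callosal neurons, fell by 0.55 on the log2 scale, Calb1, the calcium buffer calbindin, by 1.05, and Plxnd1, a semaphorin receptor, by 1.06 (-1.82 without unit 0). Plxnd1 lost its call without unit 1, 2 or 3, at -1.02 to -0.84 (adjusted p of 0.131 to 0.217, edgeR). Calb1 lost its call without unit 2 (adjusted p = 0.0862, edgeR). In the layer 6 and subplate list 1 of 10 passed, Crym, which is also in the subcerebral list.

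Markers of other cell types were present in members. The summed level of 10 astrocyte markers was 527 to 1174 CPM over the units of members, against 1376 to 1960 CPM in other cortical nuclei and 1075 to 1654 CPM in other excitatory nuclei. That of 10 endothelial and pericyte markers was 127 to 1226 CPM in members, against 1018 to 1893 CPM and 306 to 1467 CPM, and that of 10 oligodendrocyte markers 203 to 1012 CPM, against 592 to 748 CPM and 390 to 635 CPM. Inhibitory markers other than Gad1 and Gad2 summed to 182 to 406 CPM in members, against 487 to 538 CPM and 158 to 189 CPM. Excitatory markers summed to 1561 to 2298 CPM in members, against 1822 to 2104 CPM and 2477 to 2602 CPM. No marker of any of these lists was at 0 in members, and the part of these transcripts in the results was not tested.

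In members 6 of 10 tested astrocyte markers, 8 of 10 endothelial and pericyte markers and 4 of 12 inhibitory markers were lower and 0 were higher. The largest falls were in genes with few UMIs in members. Foxq1, a forkhead transcription factor, had 0 UMIs in members, and with a floor of 3 counts over all members (5.35 CPM) it was at least 5.07-fold lower. Slc22a8, an organic anion transporter of brain barriers, had 1 UMI in members (-3.97 ± 0.88), as did Igsf11 (-3.60), Clec18a (-3.57), Emcn, an endothelial sialomucin (-3.52), and Cib2 (-3.47). Dlx6os1, a noncoding RNA of forebrain interneurons (-3.48), Fgfr3, a receptor of astrocytes (-3.26), Cd59a, a complement inhibitor (-3.12), S100a16 (-2.99) and Srgn, a proteoglycan of blood cells (-2.90), had 2 UMIs each. Such counts give the direction and a rough size only.

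To set the members against neurons of the same transmitter, both classes were restricted to nuclei with a UMI of Slc17a7, the vesicular glutamate transporter VGLUT1, and none of Gad1 or Gad2. This left 89 members (34, 24, 18 and 13 in units 0, 1, 2 and 3) and 1576 other excitatory nuclei. The calcium channel Cacna1h, the potassium channels Kcnn2 and Kcng1, the neurofilament gene Nefm, Bcl11b, Fam84b and Tcerg1l were higher in members, and Gria4, Cpne9, Camk2n1 and upper layer genes were lower. Of 8542 genes tested, 55 were higher (0.644%) and 70 lower (0.819%), together 1.46%, and the units did not overlap for 7.43% of all genes. Of 39 passing genes followed through the alternatives, 6 kept their call whichever unit was left out: Cacna1h, Kcnn2, Nefm, Gria4, Cpne9 and Wdr66. The other 33 lost it without at least 1 unit, with adjusted p-values of 0.0505 to 0.802 there.

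Cacna1h lay at 208, 250.4, 136 and 237 CPM in excitatory members and at 43.4, 32.8, 51.7 and 30.5 CPM in the other excitatory nuclei, a log2 fold change of 2.36 ± 0.31 (adjusted p = 1.3e-10, edgeR). Kcnn2 lay at 229, 313, 203 and 237 CPM in members and at 90.9, 71.1, 85.1 and 81.4 CPM in others (1.55 ± 0.26, adjusted p = 4.3e-06). Nefm lay at 265, 563, 519.6 and 621 CPM in members and at 173, 191, 227 and 232 CPM in others (1.15 ± 0.20, adjusted p = 4.5e-06). In all 3 the units of the classes did not overlap, and in this comparison each passed under every alternative that was run.

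Bcl11b lay at 258, 219, 136 and 88.7 CPM in excitatory members and at 54.8, 74.7, 63.4 and 79.7 CPM in the others (1.61 ± 0.29, adjusted p = 2e-05, edgeR). Members of unit 3 lay close to the other nuclei, and without unit 0 the value was 1.14 with an adjusted p of 0.310. Fam84b (3.47 ± 0.82), Tcerg1l (3.26 ± 0.79) and Kcng1 (2.19 ± 0.52) were higher in every unit on 14 to 21 UMIs. Each lost its call when 1 of some units was left out: Fam84b without unit 0 or 3 (adjusted p = 0.0988 and 0.0707), Kcng1 without unit 0, 2 or 3 (0.217, 0.0505 and 0.0740) and Tcerg1l without unit 0, 1 or 3 (0.0718, 0.220 and 0.0629).

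Further genes higher in excitatory members were Trpc4, a TRP cation channel (2.18 ± 0.51), Ano4, of the anoctamin family (1.76 ± 0.39), Klhl32 (1.75 ± 0.42), Scn4b (1.72 ± 0.46), Nacad (1.63 ± 0.47), the secreted neurokine Fam19a1 (1.62 ± 0.31) and the proprotein convertase Pcsk5 (1.60 ± 0.45). All 7 were higher in 4 of 4 units. Fam19a1, the best counted, lay at 201, 172, 90.4 and 177 CPM in members and at 57.9, 56.5, 48.4 and 52.6 CPM in others. Ryr3 (1.26 ± 0.26), Grik2 (0.85 ± 0.23), Sema6d (1.40 ± 0.37, higher in 3 of 4 units) and Scn1a (0.66 ± 0.16) passed as well. Each of these 11 lost its call without at least 1 unit, and Sema6d was at 0.85 without unit 0 (adjusted p = 0.796, edgeR).

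Of 10 tested subcerebral genes 2 passed, Bcl11b and Fam84b, with a median of 0.92 against -0.07 over all genes. The other 8 had log2 fold changes of 1.38 for Igfbp4 (adjusted p = 0.14), 1.01 for Cdh13, 0.97 for Crym (0.13), 0.88 for Ldb2, 0.83 for Ntng1, 0.43 for Lypd1, 0.20 for Crim1 and -0.16 for Pcp4. Neither the 3 intratelencephalic genes nor the 2 near-projecting genes passed, with list medians of 0.19 and 0.87. Tshz2 had 1.31 ± 0.48 (adjusted p = 0.21), Etv1 0.29, Rorb, a layer 4 and 5 nuclear receptor, 0.19, and Deptor, an mTOR-binding protein, -0.75.

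Gria4 lay at 208, 109.5, 181 and 59.1 CPM in excitatory members and at 385, 366, 314 and 341 CPM in the others (-1.20 ± 0.24, adjusted p = 0.00017, edgeR), with no overlap. Cpne9 lay at 107, 0, 45.2 and 59.1 CPM in members and at 294, 177, 189 and 159 CPM in others (-1.84 ± 0.33), and its relative Cpne5 fell by 1.64 on the log2 scale (-2.90 without unit 0). Cpne5 lost its call without unit 1, 2 or 3, at -1.61 to -1.37 (adjusted p of 0.129 to 0.195, edgeR). Cacna2d1, an auxiliary calcium channel subunit, fell by 0.84 and Camk2n1 by 0.76. Of 12 upper layer genes 3 were lower: Plxnd1 (-2.03 ± 0.54), Cux2 (-1.18 ± 0.34, adjusted p = 0.044) and Lmo4 (-0.71 ± 0.19, adjusted p = 0.024). Each of the 3 lost its call whichever unit was left out. The astrocyte glutamate transporter Slc1a2 (-0.95 ± 0.18) and the vascular genes Rgs5 (-1.35 ± 0.28) and Slco1a4 (-1.49 ± 0.43) were lower too.

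The largest falls against excitatory nuclei were in genes of low count in members. Wdr66 had 1 UMI in members and 53.4 to 82.0 CPM in the units of other excitatory nuclei (-4.10 ± 0.87). Eapp, an E2F-associated protein (-2.74), Plk5, of the polo-like kinases (-2.24), Etnk2, an ethanolamine kinase (-2.16), the Kit ligand Kitl (-2.06) and Herc6, of the HERC ubiquitin ligases (-2.06), had 2 to 7 UMIs, and the vascular genes Ptprb (-2.25) and Igfbp7 (-2.20) had 9 and 5. Ptprb was at -0.82 without unit 0 (adjusted p = 0.796, edgeR), and Igfbp7 lost its call without unit 0, 2 or 3, at -2.11 to -1.21 (adjusted p of 0.0928 to 0.802). Tpm4, a tropomyosin, Smoc2, a matrix protein, and Dact2, a modulator of Wnt signalling, had 0 UMIs and were at least 3.63-fold, 2.85-fold and 2.77-fold lower against a floor of 3 counts over all excitatory members.

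**Figure D4:**
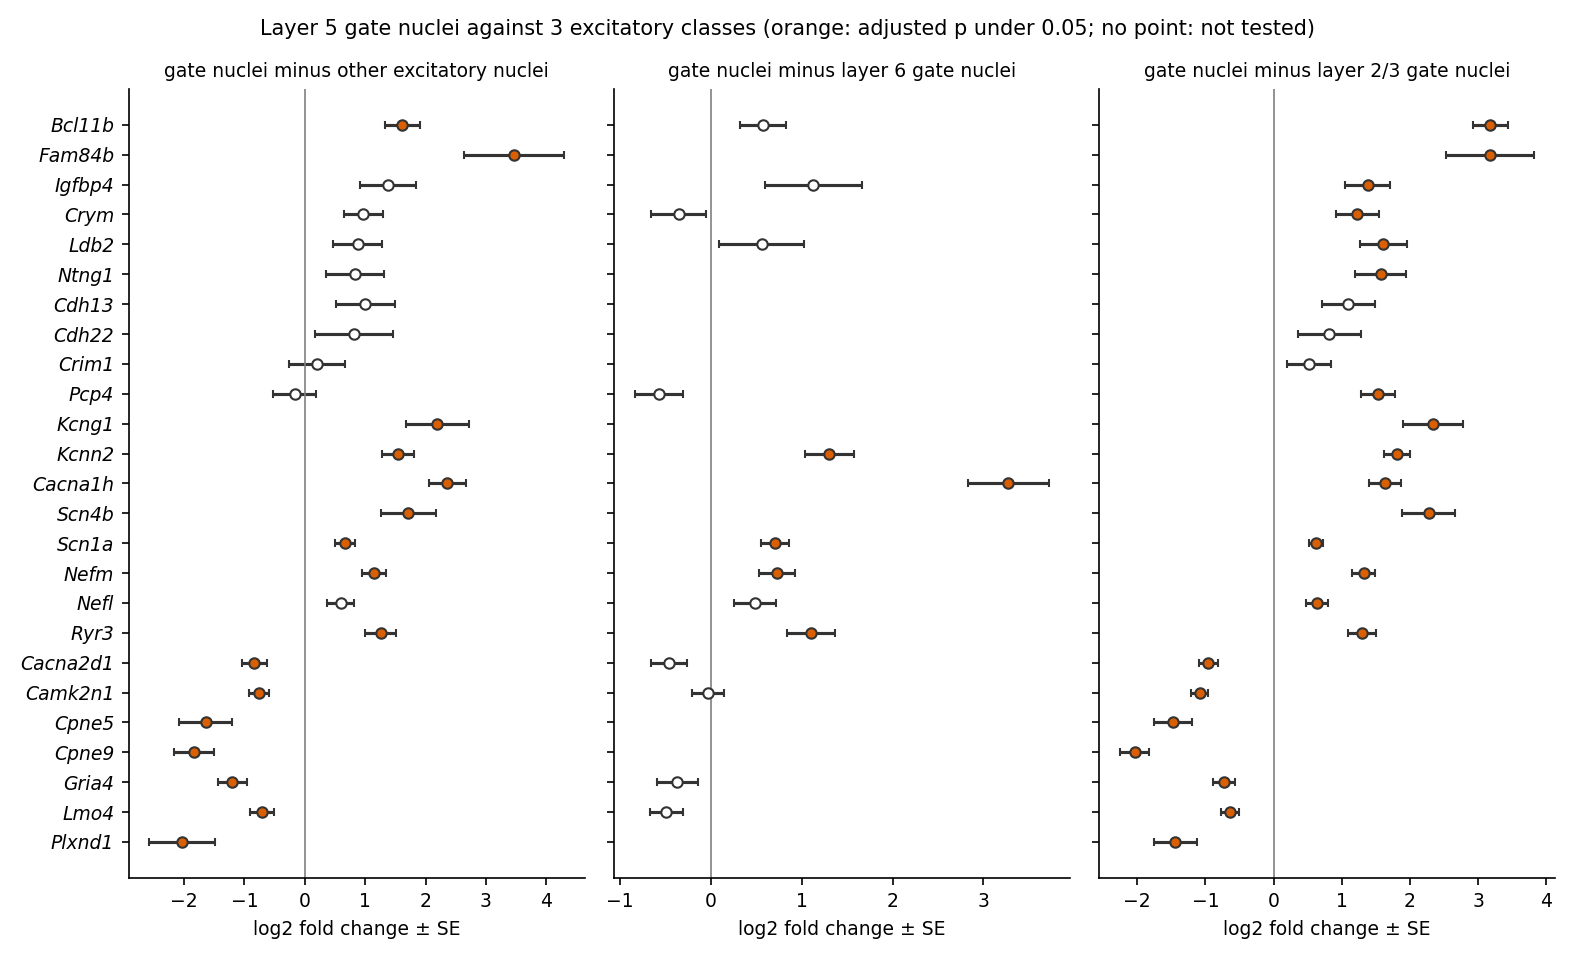
Log2 fold changes ± SE of 25 genes in gate nuclei over other excitatory nuclei, layer 6 gate nuclei and layer 2/3 gate nuclei, with orange points at an adjusted p under 0.05 (edgeR) and no point where a gene was not tested. The excitatory comparison used only the 89 gate nuclei with a UMI of Slc17a7, and both layer comparisons used all 242. Bcl11b lay at 1.61, 0.58 and 3.18 and Cacna1h at 2.36, 3.27 and 1.63 in the 3 comparisons.

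Against layer 6, defined by at least 2 UMIs from at least 2 of Syt6, Rprm, Foxp2, Tle4, Hs3st4 and Zfpm2 (195 nuclei), the members were higher in Cacna1h and Kcnn2 and did not pass for Bcl11b. Neurons of layer 6 that project to thalamus are known to carry Bcl11b as well. All 242 members entered this comparison, with or without a UMI of Slc17a7. Of 3586 genes tested, 66 were higher (1.84%) and 95 lower (2.65%), together 4.49%. Bcl11b lay at 233, 259, 179.9 and 120.4 CPM in members and at 104, 223, 143 and 147 CPM in layer 6 nuclei, overlapping (0.58 ± 0.25, adjusted p = 0.22, edgeR). None of the 5 tested subcerebral genes passed (0 higher, 0 lower).

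Cacna1h lay at 157, 194, 117 and 129.7 CPM in members and at 18.1, 0, 15.9 and 13.4 CPM in layer 6 nuclei (3.27 ± 0.45, adjusted p = 2.8e-08, edgeR). After thinning to 1000 UMIs, 12.3% of members and 0.610% of layer 6 nuclei had a Cacna1h UMI, against 1.81% of non-neuronal nuclei, which was above the layer 6 share. Before thinning the shares were 23.6, 4.62 and 6.15%. Fam19a1 rose by 2.32 ± 0.39, Lamp5, a membrane protein of synaptic vesicles, by 1.85 ± 0.31, Slit2 by 1.64 ± 0.51, Tmem150c by 1.62 ± 0.46, the cadherin Cdh7 by 1.61 ± 0.51 and Kcnn2 by 1.30 ± 0.27. Lamp5 belongs to the upper layer list, in which 1 of 5 tested genes was higher here and 0 lower, with a median of 0.71. Nefm lay at 228, 496, 459 and 509.5 CPM in members and at 168, 291, 333 and 174 CPM in layer 6 nuclei, which overlapped (0.73 ± 0.20), and its call was lost without unit 3 (adjusted p = 0.240, edgeR), without the unit as a block and at 1000 UMIs.

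Lower than in layer 6 were Ncald, the calcium sensor neurocalcin delta, at 75.9, 64.7, 144 and 74.1 CPM in members and 262, 479, 460.2 and 429 CPM in layer 6 nuclei (-2.13 ± 0.24), and Nptx1, neuronal pentraxin 1, at 116, 71.9, 54.0 and 92.6 CPM in members and 277, 274, 302 and 308 CPM in layer 6 nuclei (-1.67 ± 0.25). The collagens Col5a1 (-3.12 ± 0.69) and Col12a1 (-2.19 ± 0.45), Ighm (-2.95 ± 0.67) and Slc35f1 (-2.19 ± 0.56) fell, as did Tbr1, a transcription factor of layer 6 (-1.46 ± 0.41). Of 8 immediate early genes 2 were lower, Egr1 and Arc (-0.90 ± 0.25), and of 6 endothelial and pericyte markers 5 were lower. Of 24 passing genes followed, 15 kept their call whichever unit was left out. Cdh7, Tmem150c, Slc35f1 and Tbr1 lost it without unit 3, Slit2 without unit 1, and Arc without unit 0, 2 or 3, with adjusted p-values of 0.0505 to 0.257. Without unit 0, Fam19a1 was at 4.44, Cdh7 at 2.79 and Slc35f1 at -3.42.

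Layer 2/3 nuclei were defined by at least 2 UMIs from at least 2 of Otof, Cux2, Lamp5, Rasgrf2, Calb1 and Stard8 (1100 nuclei). Against them, all 242 members had the largest median log2 fold change of the subcerebral list among the comparisons made. The genes tested and the members used differed between comparisons. Members and nuclei with a UMI of Syt6, Rprm or Foxp2 were kept out of the layer 2/3 gate. How far the difference follows from this rule was not tested. Of 7745 genes tested, 272 were higher (3.51%) and 285 lower (3.68%), together 7.19%, with no overlap of units for 9.44% of all genes. In the list, 7 of 10 subcerebral genes were higher, with a median of 1.46 against 0.01 over all genes. Bcl11b lay at 236, 259, 177 and 121 CPM in members and at 17.3, 31.7, 19.6 and 27.5 CPM in layer 2/3 nuclei (3.18 ± 0.26, adjusted p = 1.5e-12, edgeR), with no overlap. Thinned shares were 18.3% of members and 1.94% of layer 2/3 nuclei, below the 3.93% of non-neuronal nuclei.

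Pcp4, a calmodulin-binding peptide, which did not pass against other excitatory nuclei, lay here at 92.4, 137, 141 and 149 CPM in members and at 30.2, 48.8, 62.7 and 37.5 CPM in layer 2/3 nuclei (1.53 ± 0.25). The excitatory comparison used only members with a UMI of Slc17a7. With all members against the same excitatory nuclei, Pcp4 was at 0.48 (adjusted p = 0.29, edgeR). Fam84b (3.18 ± 0.64), Ldb2, a LIM-domain-binding cofactor (1.61 ± 0.35), Ntng1 (1.57 ± 0.38), Igfbp4 (1.38 ± 0.33) and Crym (1.23 ± 0.32, higher in 3 of 4 units) also rose. Tcerg1l (3.03 ± 0.60), Gpr126 (2.88 ± 0.73), Trpc7 (2.60 ± 0.74), Ano4 (2.55 ± 0.32), Kcng1 (2.34 ± 0.45), Scn4b (2.27 ± 0.39), Htr1f, a serotonin receptor (2.05 ± 0.36), Kcnn2 (1.81 ± 0.20), Etv1 (1.69 ± 0.32) and Cacna1h (1.63 ± 0.23) were higher in all 4 units. Of 28 cytoskeletal genes 7 rose, led by Nefm (231, 497, 451 and 512 CPM in members, 158, 176, 119.5 and 178 CPM in layer 2/3 nuclei; 1.32 ± 0.16), and 1 fell.

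Plk5 lay at 10.3, 0, 17.7 and 18.6 CPM in members and at 113, 112, 86.2 and 150.1 CPM in layer 2/3 nuclei (-3.36 ± 0.41). Clec18a (-4.04 ± 0.86), Smoc2 (-3.49 ± 0.56), Cd59a (-3.10 ± 0.78), Strip2 (-3.09 ± 0.61) and the integrin subunit Itgb8 (-2.73 ± 0.66) fell, on 1 to 3 UMIs in members. Cpne9 fell by 2.04 on the log2 scale, Kcnip2, a potassium channel subunit, by 1.27, Camk2n1 by 1.08 and Cacna2d1 by 0.96. Of 9 endothelial and pericyte markers 8 were lower in members here, and their part in the comparison was not tested. Of 71 passing genes followed, 47 kept their call whichever unit was left out. Igfbp4 lost it without unit 0 or 2, Crym, Kcnip2 and Itgb8 without unit 0 and Cd59a without unit 0 or 2. Crym was at 0.47 without unit 0 (adjusted p = 0.587, edgeR).

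Within the members, those with a Fezf2 UMI (32, 42, 27 and 20 nuclei) were set against those with none (24, 28, 27 and 42 nuclei). Fezf2 is a gate gene, so members without it had passed on at least 2 of the other 7 genes, and the split rests on the rule in part. Median depth was 1932 UMIs in members with Fezf2 and 1752 UMIs in members without. Of 1873 genes tested, 0 were higher and 4 lower (0.214%), and DESeq2 called 0. At an unadjusted p under 0.05 there were 104 (5.55%). Apoe, the apolipoprotein of astrocytes, lay at 80.6, 78.7, 150.4 and 129.7 CPM in members with Fezf2 and at 534, 234, 247 and 168 CPM in members without (-1.62 ± 0.34, adjusted p = 0.013, edgeR). Camk2n1 fell by 1.07 and the nuclear RNA Malat1 by 0.15, both lower in 4 of 4 units. Apoe and Camk2n1 lost their call without unit 0 or unit 1, and Malat1 without unit 1, 2 or 3 (adjusted p of 0.166 to 0.936). Apoe was at -0.91 without unit 0. The fourth gene, named after its value was seen, was the pericyte marker Rgs5 (-3.47 ± 0.54), which was lower in 3 of 4 units and had 11.2 CPM in unit 1 and 0 CPM in unit 2 of members with Fezf2, against 429 and 892 CPM in the same units of members without it.

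The same gate in the hippocampal libraries found 177 of 5658 nuclei (3.13%, 2.71 to 3.61%). The hippocampus has no neocortical layer 5, so these nuclei show what the gate takes up elsewhere. Bcl11b lay at 72.3, 104, 160.1 and 222 CPM in hippocampal gate nuclei of units 0, 1, 2 and 3 and at 85.5, 137, 127 and 127 CPM in other hippocampal nuclei, higher in 2 of 4 units. Cacna1h, summed over units, lay at 44.1 CPM in hippocampal gate nuclei and 77.1 CPM in the others, and was higher in 1 of 4 units, whereas in cortex it was higher in 4 of 4. Kcng1 lay at 12.3 and 19.4 CPM, and Fam84b at 12.3 and 17.8 CPM. Nefm lay at 421 CPM in hippocampal gate nuclei and 226 CPM in the others, and Kcnn2 at 162 and 108 CPM, both higher in 4 of 4 units as in cortex. Also higher in 4 of 4 hippocampal units were Etv1, at 127 CPM in gate nuclei and 35.1 CPM in the others, Crym (115 and 67.9 CPM), Tshz2 (106 and 49.9 CPM) and Tcerg1l (15.9 and 7.78 CPM). Tcerg1l rests on 5, 2, 1 and 1 UMIs in gate nuclei of units 0, 1, 2 and 3. In unit 0 Crym was nearly level, at 50.6 and 49.8 CPM. Whether the regions differ was not tested.

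**Figure D5:**
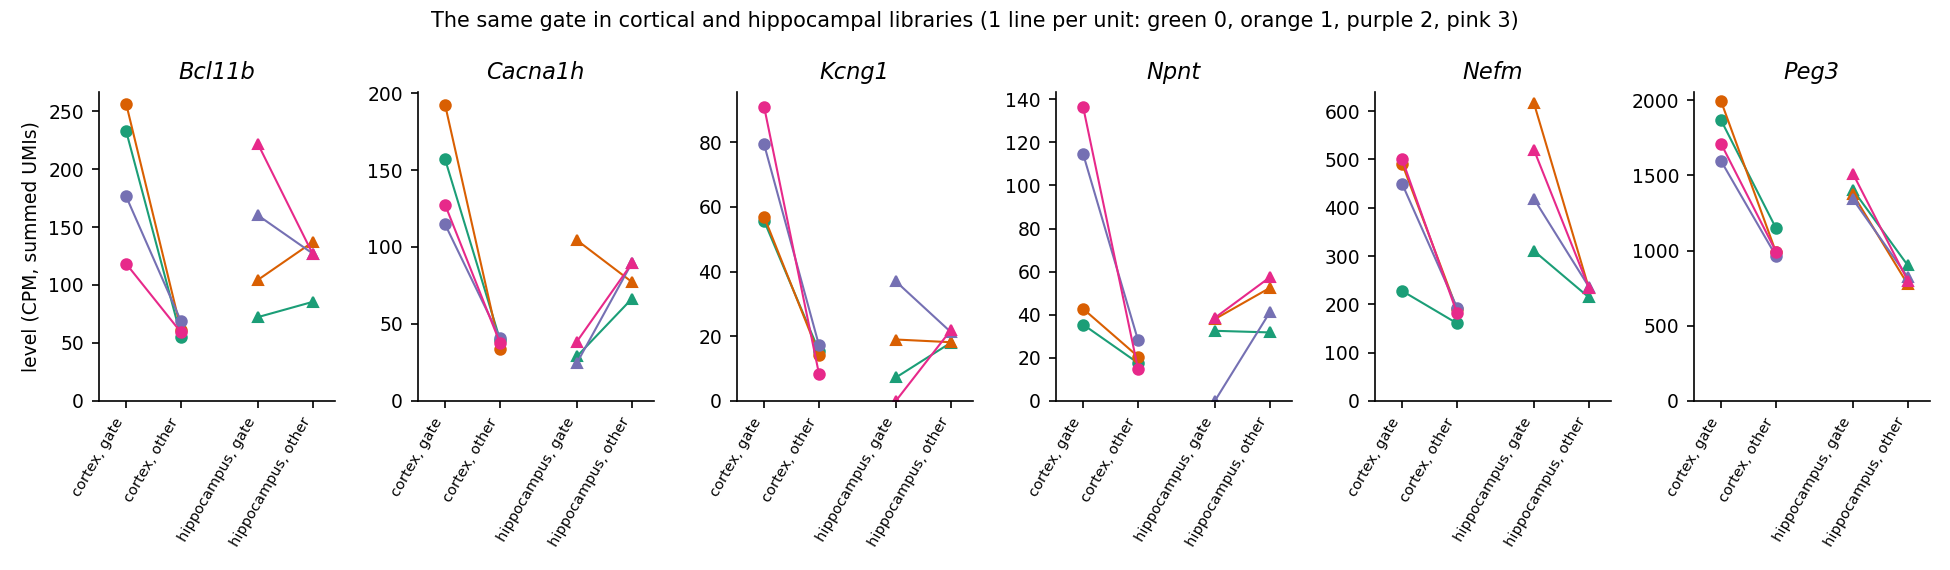
Levels (CPM) of 6 genes per unit in gate nuclei and other nuclei of cortex, then in gate nuclei and other nuclei of hippocampus. Cacna1h was higher in gate nuclei in 4 of 4 cortical and 1 of 4 hippocampal units, and Nefm in 4 of 4 of both.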

How the data were processed

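DroNc-seq UMI counts of 23589 genes were used as deposited by the authors, with no normalization. Per the submitters' processing notes, STAR 2.4.0a24, Seurat and the build mm10 were used. The handling of duplicate UMIs, introns and strand and the selection of nuclei are not given in the sources used here. Of 13313 columns, 1689 match no sample label and were not used, leaving 11624 nuclei. Members and gene lists were chosen with earlier results of these data known.

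Counts were summed per unit and class and tested in edgeR 4.0.16 (R 4.3.3; TMM, filterByExpr, quasi-likelihood, Benjamini-Hochberg, threshold 0.05). The unit was a block, since both sums come from the same libraries. The procedure was also run on simulated counts, drawn without unit effects and with the dispersion trend it had fitted. That run cannot show how calls depend on the pairing or on a gene's own spread. CPM of tests use effective library sizes, and other CPM use raw totals. Named genes passed, averaged at least 20 CPM in the higher class and moved alike in 4 of 4 units; the 12 largest folds per direction (6 for layer gates, 4 for Fezf2) were taken, with up to 4 genes per list. Predicted and Rik genes were not named, and genes given with a count that fall outside this rule were chosen after their values were seen. Layer 2/3 nuclei had no UMI of Syt6, Rprm or Foxp2, both layer gates excluded Gad1, Gad2 and members, and genes of either gate were not tested. Non-neuronal nuclei had at least 3 UMIs from at least 2 glial, vascular or fibroblast genes and none of Slc17a7, Gad1 or Gad2, and members were not taken out of them.

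Clusters used 2000 variable genes, 30 components, 20 neighbours and a Leiden resolution of 2.0 (leidenalg 0.10.2, Python 3.11.15). Doublet calls, 180 cortical nuclei including 5 members, stayed in. Gene positions came from GENCODE for 167 of 170 named genes. Intervals cover counting error only.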

Additional observations from a re-analysis of the deposited data

Results flagged for a closer look

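In 6 cases the log2 difference of 1 unit (from CPM with a pseudocount of 10 CPM) stood apart from the other 3 by more than Dixon's 95% critical value, which chance alone gives for about 1 in 20 groups. Against other cortical nuclei, Clec18a was at -0.67 in unit 1, where the members held their 1 UMI, and at -1.80 to -1.68 in the others. Against other excitatory nuclei, Eapp was at -0.96 in unit 0, with others at -2.88 to -2.61, and Dact2 at -1.73 in unit 0, with others at -2.29 to -2.22. Kitl was at -3.70 in unit 2, with others at -1.69 to -1.29. Against layer 6 gate nuclei, Cacna1h was at 4.35 in unit 1, where layer 6 nuclei had 0 UMIs, with others at 2.30 to 2.58. Slit2 was at 0.62 in unit 2, with others at 1.47 to 1.60.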

How the results depend on the processing

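Pairing by unit follows from the design, since both sums of a unit share libraries. With no replicate block, there were 167 calls against all cortical nuclei (501 with it), 42 against other excitatory nuclei (125), 36 against layer 6 (161), 234 against layer 2/3 (557) and 0 between members with and without Fezf2 (4). DESeq2 gave 167, 32, 20, 179 and 0 in the same order, with 62.3 and 75.0% higher in the first 2, against 41.3 and 44.0%. Leaving out 1 unit gave 261 to 338, 45 to 106, 81 to 150, 291 to 484 and 0 to 14, and numbers 1 to 3 only gave 261, 45, 85, 291 and 7. Against excitatory nuclei, a bias-adjusted fit gave 61 and all members 259 calls. At 1000 UMIs, 66 remained against layer 6. For Fezf2, DESeq2 size factors gave 2, no filter 9, the bias-adjusted fit 8, libraries 0a and 0b apart 9, doublets removed 1 and at least 3 gate UMIs 0. The bias-adjusted fit and the fit with all members were chosen after seeing the data, as was one that left out clusters with at least 2 listed glial, vascular or interneuron markers among 10 leading genes, which gave 383 calls against all cortical nuclei. Cluster 10 (286 nuclei, leading genes Slc7a10 and Fgfr3) stayed in that fit. Of the 501 calls, 296 were also made there and 10 had the other sign. Over all genes called, the sign also turned without unit 0 for 3 against layer 6 and 1 (Tshz2) against all cortical nuclei, and in DESeq2 for 1 against layer 6. The other settings stayed within 1.5 times of the count.

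Of the genes tested across settings, 26 of 80 against all cortical nuclei, 10 of 52 against other excitatory nuclei, 9 of 24 against layer 6 and 38 of 71 against layer 2/3 kept direction and side of the threshold in every setting with a value. Signs turned for Tshz2 against all cortical nuclei (-0.071 without unit 0, which is also numbers 1 to 3 only; -0.071 to 1.39 over the units left out). Against excitatory nuclei they turned without unit 0 for Crim1 (-0.021; -0.021 to 0.43), Etv1 (-0.025; -0.025 to 0.57) and Lypd1 (-0.75; -0.75 to 0.84), for Etv1 with doublets removed (-0.12), for Pcp4 without unit 1 (0.066; -0.25 to 0.066) and with all members (0.48), and for Rorb without unit 2 (-0.11; -0.11 to 0.57), at 1000 UMIs (-0.0086) and with all members (-0.34). None of these had passed except Tshz2. Malat1 turned between members with and without Fezf2 at 3 gate UMIs (0.091). The cause was not tested. Members' depth limits genes under about 10 CPM, and the residual spread was pooled over genes.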

Other observations

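Among abundant transcripts, 2 chosen after their values were seen were higher in gate nuclei of both regions. The imprinted zinc finger gene Peg3 lay at 1814 CPM in cortical gate nuclei and 1046 CPM in other cortical nuclei, and at 1411 CPM in hippocampal gate nuclei and 844 CPM in other hippocampal nuclei. The imprinted noncoding RNA Meg3 lay at 53799 and 38468 CPM in gate and other nuclei of cortex and at 48704 and 29740 CPM in gate and other nuclei of hippocampus. Both were higher in 4 of 4 units of each region, and gate nuclei were deeper than other nuclei in both regions (medians of 1838.5 and 1312.5 UMIs in cortex, 2549 and 978 in hippocampus). The part of depth in these differences was not tested. Nuclei that passed the positive genes but carried a layer 2/3, layer 6 or Scube1 transcript lay between, with Bcl11b at 115 CPM and Cacna1h at 76.2 CPM, against 205 and 151 CPM in members.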
